A study of Mus musculus with 9 samples.

Results

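Heat shock proteins are chaperones that hold or refold unfolded proteins, and 10 of their genes are described here in the smooth muscle layer of the mouse femoral artery. They were chosen by gene name as a list: 5 genes of small heat shock proteins (Hspb1, Hspb6, Hspb7, Hspb8 and Cryab) and 5 genes known for their induction by stress (Hspa1a, Hspa1b, Dnajb1, Hsph1 and Bag3). All 10 were found in each of the 3 deposited tables, out of 17093 genes present in at least 1 table and 15592 present in all 3. The list was not chosen by a threshold on measured values. It was, however, chosen with earlier results of these data known, so the counts below describe it and are no independent test.

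All 9 libraries came from C57BL/6 mice and were made from the media of the femoral artery, in 3 groups of 3: sham-operated arteries, arteries taken 14 days after wire injury, and arteries taken 14 days after wire injury from mice given VS-4718, an inhibitor of focal adhesion kinase (FAK). Per the labels, mice received 50 mg/kg of the drug by gavage, 2 doses each day over 2 weeks, with citrate buffer as the vehicle. Fat and adventitia were dissected off and the lumen was rinsed with lysis reagent before RNA was taken, per the labels. The names sham, injured and inhibitor-treated stand for these groups, and a number after the name gives the replicate. The age of the mice and the number of animals behind each library are not given, so the p-values reflect no more than how far these libraries vary, part of which may be technical.

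As background, small heat shock proteins form oligomers that hold unfolding proteins without using ATP, and several of them are abundant in muscle, where they bind actin filaments, intermediate filaments and other parts of the contractile apparatus. HSP70 proteins refold clients in cycles of ATP use, J-domain proteins such as DNAJB1 bring clients to them, and HSP110 proteins such as HSPH1 exchange their nucleotide. BAG3 links HSP70 to the small heat shock protein HSPB8 and, in muscle, to the autophagy of damaged filamin. Under heat or other stress the factor HSF1 binds heat shock elements, which are inverted repeats of the unit NGAAN, upstream of such genes.

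The sequences just upstream of the start sites are shown first. The genes of the list differ in whether an exact match to a 2-unit heat shock element was found there. RefSeq promoter entries (build GRCm38.p6) were matched for 9 of the 10 genes and gave 12 windows of the 250 bases before a start site. Windows of the near-identical HSP70 genes Hspa1a (chr17:34972157-34972406, minus strand) and Hspa1b (chr17:34959239-34959488, minus strand), of Hspb1 (chr5:135887669-135887918, plus strand) and of Hspb7 (chr4:141420529-141420778, plus strand) are printed 5′ to 3′ and end at the base before the start site. Capitals mark matches to a heat shock element of 2 units, searched as TTCNNGAA or GAANNTTC on both strands (each pattern is its own reverse complement).
Hspa1a: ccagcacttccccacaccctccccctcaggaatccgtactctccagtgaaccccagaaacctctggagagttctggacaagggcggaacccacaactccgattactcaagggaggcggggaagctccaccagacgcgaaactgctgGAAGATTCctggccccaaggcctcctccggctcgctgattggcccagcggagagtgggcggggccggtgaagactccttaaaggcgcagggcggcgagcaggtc
Hspa1b: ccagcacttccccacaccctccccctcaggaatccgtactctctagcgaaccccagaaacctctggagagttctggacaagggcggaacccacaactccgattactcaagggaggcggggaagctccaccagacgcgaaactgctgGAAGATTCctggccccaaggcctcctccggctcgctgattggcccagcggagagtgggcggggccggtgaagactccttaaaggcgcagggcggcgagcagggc
Hspb1: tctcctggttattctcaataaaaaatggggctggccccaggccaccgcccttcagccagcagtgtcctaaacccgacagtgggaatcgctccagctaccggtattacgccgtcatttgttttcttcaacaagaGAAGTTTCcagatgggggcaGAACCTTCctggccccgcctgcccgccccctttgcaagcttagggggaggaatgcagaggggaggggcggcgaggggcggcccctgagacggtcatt
Hspb7: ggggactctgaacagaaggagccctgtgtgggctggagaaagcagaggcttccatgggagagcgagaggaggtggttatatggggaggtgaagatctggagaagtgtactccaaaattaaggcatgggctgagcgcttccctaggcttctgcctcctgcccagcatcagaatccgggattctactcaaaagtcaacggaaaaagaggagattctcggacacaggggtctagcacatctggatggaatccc
The Hspa1a and Hspa1b windows differ at 3 of 250 bases, and both hold the match 104 bases before the start. Hspb1 holds 2 matches, 117 and 97 bases before the start. The Hspb7 window holds no match to these letters.

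Sites of 30 bases around the match are shown for the other 2 genes that hold one, Hsph1 (chr5:149636351-149636380, minus strand) and Hspb6 (chr7:30553170-30553199, plus strand), with the match in capitals.
Hsph1: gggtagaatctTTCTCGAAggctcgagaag
Hspb6: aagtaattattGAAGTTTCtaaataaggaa
In all, 6 of the 12 windows, from 5 genes, held a 2-unit element, against 12.8% of the 32851 promoter windows of the same length in the table. The 6 are not independent: both Hsph1 windows overlap and hold the same site, and those of Hspa1a and Hspa1b are near-identical. Some windows also lie in annotated exons, 1 Dnajb1 window for 245 of its 250 bases and 1 Hspb6 window, without a match, for all 250. The Hsph1 windows do so for 61 and 40 bases. The Hsph1 match lies inside the gene as annotated in GENCODE vM21, whose 5′ end on the minus strand is at 149636376. The same element extended by 1 more alternating unit, to 3 units, was in 0 of the 12 windows and in 0.466% of all windows. The TATA box TATAAA was in 1 of the 12 windows, an Hspb6 window, and in 12.4% of all, and the CArG box, the element bound by serum response factor, was in 0 of the 12 and in 1.47% of all. A match describes the letters of the window and is no evidence of binding, and a window without a match says only that these letters are not in it.

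The recovered reads ranged from 14676891 to 21248740 per library, and the 10 genes had between 403 and 14619 reads in a library. Levels below are normalised counts on 1 scale common to the 9 libraries, given in the order of replicates 1, 2 and 3, while fold changes and tests come from the deposited table of each pair of groups. Libraries differed in markers of other cell types: 25 skeletal muscle markers summed to between 42831 and 698313 normalised counts in the injured libraries, highest in injured 2, against 18273 to 47574 in sham and 9529 to 56006 with the inhibitor. The 7 measured markers of red cell precursors summed to 37875 at the least and 88828 at the most with the inhibitor, and to at most 367 elsewhere. The small nuclear RNA Rn7sk was at 16224 to 26973 in the inhibitor-treated libraries and at 4.36 to 28.1 in the other 6, and 10 hepatocyte markers had a mean log2 level of 10.5 in inhibitor 3 against 3.00 to 4.18 elsewhere. Rn7sk and the markers of red cell precursors were high in all 3 inhibitor-treated libraries and in none of the other 6. Their part cannot be told apart from that of the inhibitor, whichever library is left out. The parts of the skeletal muscle and hepatocyte differences in the results below were not tested, except where libraries were left out.

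Compared per kilobase of merged exons, the small heat shock genes were the highest of the list in sham arteries. Hspb1 was at 7937 ± 1332 normalised counts per kilobase (SD, n = 3), Hspb7 at 4874 ± 703, Cryab at 2417 ± 379, Hspb8 at 1229 ± 45.6 and Hspb6 at 1209 ± 201. The last 2 did not differ beyond their spread. The inducible genes followed, with Hspa1b at 753 ± 99.2, Bag3 at 743 ± 35.6 and Hspa1a at 681 ± 76.3, which lay within each other's spread, then Hsph1 at 424 ± 95.1 and Dnajb1 at 264 ± 19.9. For scale, Hspa8, the constitutive HSP70 of the cytosol, was at 5756 ± 583. In injured arteries Hspb1 was still the highest at 2706 ± 581, but Hspb7 was at 883 ± 89.4, below Cryab at 1484 ± 374, and Hspa1a was the lowest of the 10 at 145 ± 16.5.

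The comparison of injured with sham arteries addresses which transcripts differ 14 days after wire injury. Of the 10 genes, 8 fell, 0 rose, and Hspb8 and Bag3 did not pass the test (limma on log2 of the normalised count plus 1, adjusted p under 0.05 over all genes tested). The background was 16.8% of the 16278 genes tested called lower and 20.6% called higher in this comparison (2730 and 3346 genes, against 3344 and 2842 with quantile normalisation and 2247 and 2112 with scaling to ribosomal protein genes). In 9 of the 10 genes every injured library lay below every sham library, which was so for 25.3% of all genes. The median log2 fold change of the 10 genes was -1.23, beside -0.002 over all genes, and in a bulk sample fewer cells of a type and less RNA per cell cannot be told apart.

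The comparison of inhibitor-treated with injured arteries addresses which transcripts differ with the FAK inhibitor after the same injury. The same 8 genes were called, now higher in the inhibitor-treated arteries, 0 were lower, and Hspb8 and Bag3 again did not pass. The background was 17.6% of the 16901 genes tested called higher and 18.5% called lower. The libraries of the groups did not overlap for 8 genes, against 26.1% of all genes, and the median log2 fold change was 1.24 beside 0.006 over all genes. Both comparisons use the same 3 injured libraries, so a high or low injured level enters both with opposite sign.

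**Figure D1:**
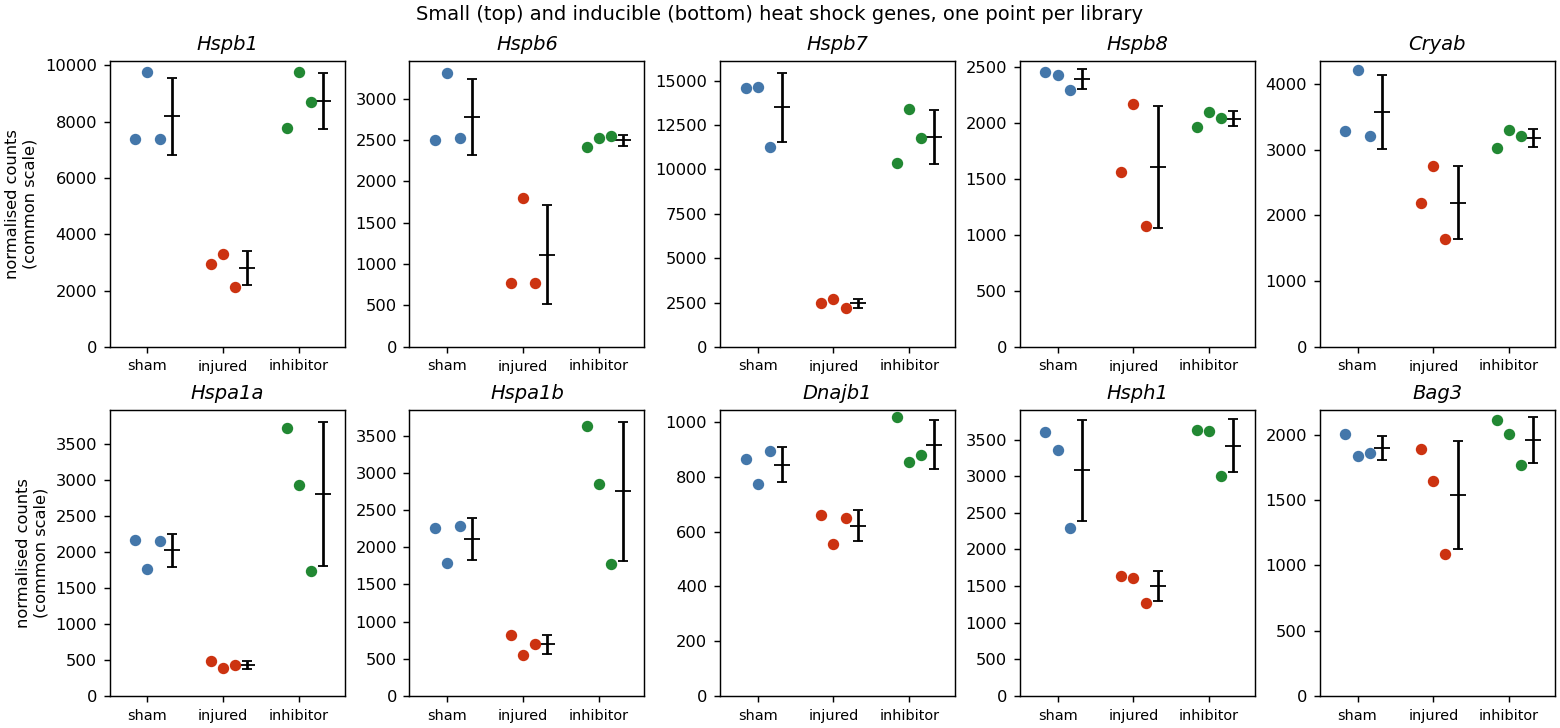
Normalised counts on the common scale (vertical axes, linear from 0) of the 5 small heat shock genes (top) and the 5 inducible genes (bottom) in the sham, injured and inhibitor-treated groups; each point is a library and the bar beside it is the mean ± SD of 3. The injured points lie below all others in most panels, and the Hspb8 and Bag3 panels show the widest injured spread relative to the difference.

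Among the small heat shock genes, Hspb7 (chr4:141420779-141425311, plus strand; gene positions here are GENCODE vM21 on GRCm38), whose product is found mainly in heart and other muscle, had the largest difference. Its levels were 14608, 14631 and 11247 normalised counts in sham, 2465, 2681 and 2187 in injured and 10363, 13410 and 11782 in inhibitor-treated libraries. The injured libraries were all far below the other 6, which overlapped each other. The log2 fold change was -2.47 ± 0.15 (SE, n = 3 per group; limma adjusted p = 1.74e-05) for injured against sham, a 5.52-fold lower level, and 2.28 ± 0.13 (limma adjusted p = 5.7e-05) for inhibitor against injured.

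Hspb1 (chr5:135887919-135889563, plus strand) encodes HSP27 (HSP25 in mouse), which binds actin filaments and is phosphorylated in stressed or contracting smooth muscle. Its levels were 7396, 9770 and 7385 in sham, 2958, 3287 and 2124 in injured and 7767, 9760 and 8683 in inhibitor-treated libraries. Injured libraries were again apart from both other groups. The gene fell by 1.57 on the log2 scale after injury (SE 0.19, limma adjusted p = 0.000374) and was 1.67 ± 0.17 higher with the inhibitor than in injured arteries (limma adjusted p = 0.000467). Of the 50-base windows of its transcript, 51.6% also occur in the pseudogene Hsp25-ps1, and how the authors counted reads that match both is not given in the sources used here.

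Hspb6 (chr7:30552178-30555443, plus strand) encodes HSP20, a small heat shock protein phosphorylated when cyclic nucleotides relax smooth muscle. Its levels were 2501, 3314 and 2525 in sham, 771, 1800 and 777 in injured and 2413, 2527 and 2543 in inhibitor-treated libraries. Injured 2 was more than the sum of the other 2 injured libraries and still below all sham and inhibitor-treated libraries. The log2 fold change was -1.43 ± 0.31 for injured against sham (limma adjusted p = 0.00716) and 1.28 ± 0.31 for inhibitor against injured (limma adjusted p = 0.0159). Without injured 2, the library richest in skeletal muscle RNA, these became -1.84 (limma adjusted p = 0.000156) and 1.69 (limma adjusted p = 0.00031), while with array weights they were smaller, at -0.75 (limma adjusted p = 0.023) and 0.59 (limma adjusted p = 0.0418). The call with the inhibitor was lost without injured 1 or inhibitor 1 (limma adjusted p = 0.0501 each) or without inhibitor 2 (limma adjusted p = 0.051).

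Cryab (chr9:50751325-50756636, plus strand) encodes alphaB-crystallin, which binds desmin filaments in muscle. Its levels were 3288, 4219 and 3215 in sham, 2189, 2749 and 1644 in injured and 3031, 3297 and 3208 in inhibitor-treated libraries. The injured libraries lay below those of both other groups, which overlapped each other. Injured 2 was closer to the lowest inhibitor-treated library than to injured 3. Exons of Hspb2 on the opposite strand overlap 252 bases, 17% of the Cryab exons, and reads there cannot be told apart without strand. Cryab fell by 0.73 after injury (SE 0.20, limma adjusted p = 0.0193) and was 0.57 ± 0.18 higher with the inhibitor (limma adjusted p = 0.0407). The first call was lost without sham 2 (limma adjusted p = 0.0851). The second was lost with edgeR (adjusted p = 0.0522), with quantile normalisation (limma adjusted p = 0.0912), with array weights (limma adjusted p = 0.0583) and without injured 1 or any 1 of the inhibitor-treated libraries (limma adjusted p from 0.0821 to 0.117). Array weights gave -0.44 and 0.26 for the 2 comparisons, leaving out injured 3 gave 0.38 for the second, and scaling to ribosomal protein genes gave 0.93 for it.

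Hspb8 (chr5:116408491-116422864, minus strand) encodes HSP22, the small heat shock protein that BAG3 binds. Its levels were 2460, 2433 and 2294 in sham, 1565, 2170 and 1083 in injured and 1967, 2102 and 2049 in inhibitor-treated libraries. The sham and inhibitor-treated libraries each lay in a narrow range, while the injured libraries ran from below both to above all 3 inhibitor-treated ones. The difference of injured from sham, -0.64 ± 0.22, missed the threshold (limma adjusted p = 0.0522), as did that of inhibitor from injured, 0.40 ± 0.23 (limma adjusted p = 0.2). Without injured 2 both passed, at -0.89 (limma adjusted p = 0.00615) and 0.65 (limma adjusted p = 0.0313). The injured against sham call was also made with DESeq2 and in the authors' deposited table (adjusted p = 0.0366 in each), with scaling to ribosomal protein genes (limma adjusted p = 0.0148) and in a fit of all 9 libraries (limma adjusted p = 0.0257). Both differences shrank without injured 3, to -0.38 (limma adjusted p = 0.0632) and 0.15 (limma adjusted p = 0.406), and with array weights, to -0.22 (limma adjusted p = 0.221) and -0.02 (limma adjusted p = 0.92), where the second changed sign. With scaling to ribosomal protein genes the second passed, at 0.77 (limma adjusted p = 0.0299).

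All 5 small heat shock genes were highest, among the injured libraries, in injured 2, where the mean log2 level of 25 skeletal muscle markers was 12.6 against 10.3 in injured 1 and 9.1 in injured 3. In sham arteries, the library highest in these markers was sham 3, at 9.39, and 4 of the 5 small heat shock genes (all but Hspb8, which was highest in sham 1) were highest in sham 2. With injured 2 and sham 3 left out, the fold changes of injured against sham were -2.66 for Hspb7, -1.90 for Hspb6, -1.77 for Hspb1, -0.98 for Cryab and -0.92 for Hspb8, each larger than with them. Hspb8 passed there too (limma adjusted p = 0.0163).

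The ratio of Hspb7 to Hspb8 within a library, which no scaling of the library can move, was 5.94, 6.01 and 4.90 in sham, 1.57, 1.24 and 2.02 in injured and 5.27, 6.38 and 5.75 in inhibitor-treated libraries. The small heat shock genes therefore changed unequally within the same libraries. The ratio of Hspb6 to Cryab was 0.76 to 0.79 in sham, 0.35 to 0.65 in injured and 0.77 to 0.80 in inhibitor-treated libraries. Of 12 such comparisons over 4 ratios, which were chosen after the values were seen, none could go below p = 0.1 (exact permutation test, two-sided, 3 libraries against 3; 0.133 after Benjamini-Hochberg adjustment), and each comparison with the injured group reached it.

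Hspa1a (chr17:34969190-34972156) and Hspa1b (chr17:34956436-34959238) encode near-identical stress-inducible HSP70 proteins from neighbouring single-exon genes on the minus strand, 9951 bases apart. Hspa1a levels were 2158, 1760 and 2145 in sham, 481, 383 and 424 in injured and 3722, 2932 and 1740 in inhibitor-treated libraries. Injured libraries were the lowest in every case, and the inhibitor-treated libraries ran from just below the lowest sham library to above all of them. Hspa1a fell by 2.24 on the log2 scale after injury (SE 0.13, limma adjusted p = 1.74e-05), a 4.72-fold lower level, and was 2.64 ± 0.26 higher with the inhibitor than in injured arteries (limma adjusted p = 0.000385), a 6.24-fold higher level.

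Hspa1b levels were 2264, 1790 and 2279 in sham, 822, 556 and 700 in injured and 3631, 2852 and 1768 in inhibitor-treated libraries. The pattern over libraries was that of Hspa1a with a smaller fall in the injured group. Its fold changes were -1.62 ± 0.17 (limma adjusted p = 0.000168) and 1.95 ± 0.27 (limma adjusted p = 0.00148). Of the 50-base windows of the Hspa1a transcript, 58.8% also occur in Hspa1b, and 62.3% of those of Hspa1b occur in Hspa1a, so each level depends on how reads that match both were counted. The sum of the pair does not depend on how such reads were split between the genes, but does on whether they were kept or counted for both. It changed by -1.89 ± 0.15 (limma adjusted p = 5.52e-05) and 2.26 ± 0.27 (limma adjusted p = 0.000773).

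The ratio of Hspa1b to Hspa1a was 1.05, 1.02 and 1.06 in sham, 1.71, 1.45 and 1.65 in injured and 0.98, 0.97 and 1.02 in inhibitor-treated libraries. All 3 injured libraries were apart from the other 6, by 0.62 on the log2 scale from sham and by 0.69 from inhibitor-treated libraries (p = 0.1 each, exact permutation test, two-sided, the smallest p of this design). The gene Gm20481 on the opposite strand shares 564 exon bases, 19% of the Hspa1a exons, and whether the counting used strand is not given in the sources used here.

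**Figure D2:**
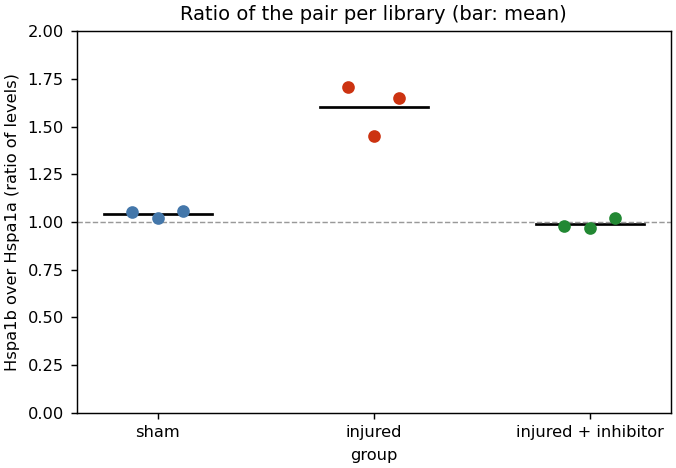
Ratio of the Hspa1b level to the Hspa1a level in each library (vertical axis, linear from 0, no unit) by group; points are libraries, bars are group means and the dashed line marks a ratio of 1. The injured libraries sit between 1.45 and 1.71 and the other 6 between 0.97 and 1.06.

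Against Hspa8, the constitutive partner gene, the inducible HSP70 also moved within a library. The Hspa1a to Hspa8 ratio was 0.07 to 0.10 in sham, 0.02 to 0.03 in injured and 0.07 to 0.16 in inhibitor-treated libraries. Hspa8 itself fell by 0.53 after injury (SE 0.17, limma adjusted p = 0.0351) and was 0.52 ± 0.13 higher with the inhibitor (limma adjusted p = 0.0179), and both calls were lost with quantile normalisation (limma adjusted p = 0.13 and 0.196).

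Hsph1 (chr5:149614287-149636376, minus strand) encodes HSP105, an HSP110 protein that acts as the nucleotide exchange factor of HSP70. Its levels were 3600, 3352 and 2299 in sham, 1631, 1608 and 1265 in injured and 3626, 3623 and 3001 in inhibitor-treated libraries. Sham 3 was the lowest of the uninjured libraries and still above all injured ones. Hsph1 fell by 1.03 after injury (SE 0.19, limma adjusted p = 0.00303) and was 1.19 ± 0.13 higher with the inhibitor (limma adjusted p = 0.000617).

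Dnajb1 (chr8:83608193-83612653, plus strand) encodes HSP40, the stress-inducible J-domain partner of HSP70. Its levels were 866, 774 and 896 in sham, 660, 557 and 651 in injured and 1021, 853 and 880 in inhibitor-treated libraries. The differences were small but the injured libraries did not overlap with the others. Dnajb1 fell by 0.45 after injury (SE 0.12, limma adjusted p = 0.0193) and was 0.56 ± 0.12 higher with the inhibitor (limma adjusted p = 0.00924). With scaling to ribosomal protein genes the values were -0.68, where the call was lost (limma adjusted p = 0.0534), and 0.93. The call after injury was also lost without sham 1, sham 3 or injured 2 (limma adjusted p from 0.0719 to 0.0756) and without both injured 2 and sham 3 (0.215).

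Bag3 (chr7:128523616-128546981, plus strand), the co-chaperone that joins HSP70 to HSPB8, differed least. Its levels were 2007, 1837 and 1863 in sham, 1896, 1644 and 1085 in injured and 2112, 2004 and 1768 in inhibitor-treated libraries. Only injured 3 stood well below the rest, and the groups overlapped. The log2 fold change was -0.35 (95% interval -0.79 to 0.10; limma adjusted p = 0.195) for injured against sham and 0.39 (-0.09 to 0.86; limma adjusted p = 0.174) for inhibitor against injured. With scaling to ribosomal protein genes, which put the median of all genes at -0.228 and 0.368, both passed at -0.57 and 0.75 (limma adjusted p = 0.0282 and 0.00949), and with array weights the second did (limma adjusted p = 0.0332) while the first was at -0.23. Without injured 3 the values were -0.11 (limma adjusted p = 0.419) and 0.15 (limma adjusted p = 0.293).

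All 5 inducible genes were highest, among the injured libraries, in injured 1, and, among the inhibitor-treated libraries, in inhibitor 1. The spread of the inducible HSP70 pair was widest in the inhibitor-treated group, with an SD on the log2 scale of 0.56 for Hspa1a and 0.53 for Hspa1b, against 0.04 for Hspb6, 0.05 for Hspb8 and 0.06 for Cryab there. The remaining genes of the list lay between 0.13 for Bag3 and 0.19 for Hspb7 in the inhibitor-treated group. In the injured group Hspb6 was at 0.70 and Hspb8 at 0.50, above Hspa1a at 0.16. This was no split between small and inducible genes, with Hspb7 at 0.15, Hspb1 at 0.33, Hspa1b at 0.28 and Bag3 at 0.42. For immediate early genes, which handling of tissue can raise, the mean log2 level was compared with its 9-library mean. It lay between -0.02 and 0.16 from it in sham, between -0.32 and 0.24 in injured and between -0.08 and 0.19 in inhibitor-treated libraries. That mean hides moves in both directions. Of the 14 genes, 3 were higher and 5 lower after injury, with log2 fold changes from -1.42 to 1.39. With the inhibitor 5 were higher and 2 lower than in injured arteries, and 0 higher and 1 lower than in sham. Over all genes tested, 20.6% were called higher and 16.8% lower after injury. The shares were 17.6% and 18.5% for inhibitor against injured, and 5.15% and 0.934% for inhibitor against sham. The 14 genes were not tested against these shares. The part of these genes in the heat shock gene differences was not tested.

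**Figure D3:**
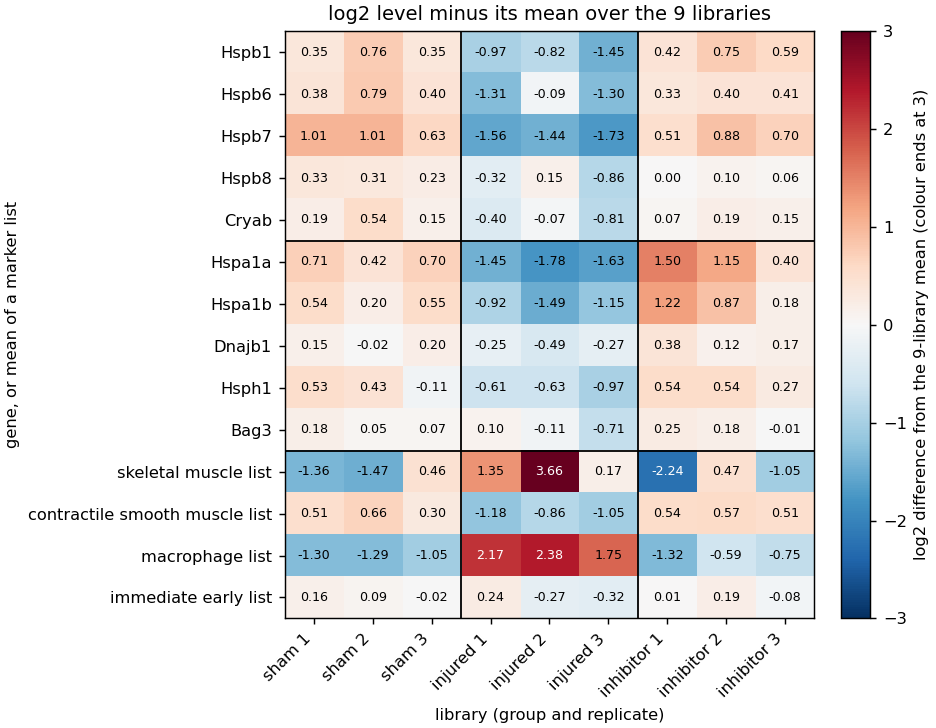
Heat map of the log2 level of each gene, or the mean log2 level of a marker list, minus its own mean over the 9 libraries (columns), with the value in each cell. The injured columns are below 0 for most heat shock genes, and injured 2 stands out in the skeletal muscle list at 3.66 and in Hspb8 at 0.15.

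The comparison of inhibitor-treated with sham arteries addresses what differs between treated injured vessels and vessels that were not injured. None of the 10 genes passed the test in either direction with limma, edgeR, DESeq2 or in the authors' deposited table, beside 5.15% of the 16166 genes tested called higher and 0.934% called lower. At an unadjusted p under 0.05, 1 of the 10 passed with limma, 1 with edgeR and 2 with DESeq2 and in the authors' deposited table. Their log2 fold changes ran from -0.22 to 0.42 with a median of 0.08, and 1 gene, Hspb8, had inhibitor-treated libraries all below sham, which was so for 13.1% of all genes.

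A miss of the threshold does not show equal levels, so the intervals are given. Hspb8 was at -0.22 (95% interval -0.36 to -0.08; limma adjusted p = 0.084). Hspb7 was at -0.17 (-0.47 to 0.13), Cryab at -0.15 (-0.39 to 0.09), Hspb6 at -0.13 (-0.38 to 0.11) and Hspb1 at 0.11 (-0.18 to 0.41). Among the inducible genes the intervals were wider for Hspa1a, at 0.42 (-0.14 to 0.98), and Hspa1b, at 0.34 (-0.20 to 0.89), than for Hsph1, at 0.18 (-0.19 to 0.55), Dnajb1, at 0.13 (-0.09 to 0.35), or Bag3, at 0.05 (-0.14 to 0.24). Without inhibitor 3, Hspa1a was 0.72 above sham and passed (limma adjusted p = 0.0241). Inhibitor 3 was the library with the lowest Hspa1a of its group and the one with the hepatocyte markers.

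**Figure D4:**
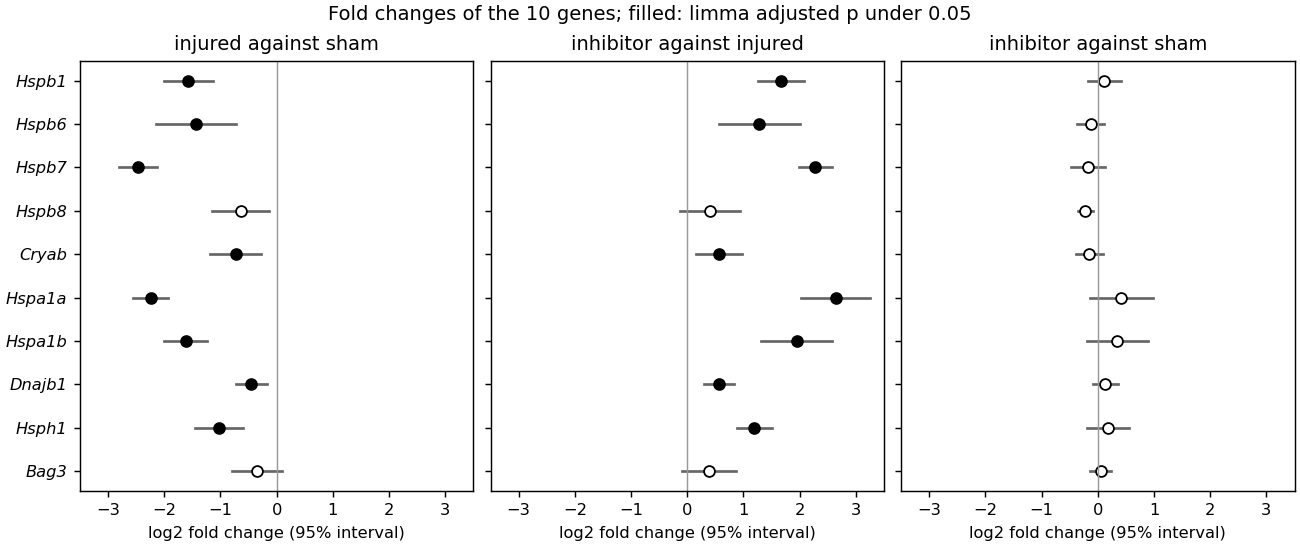
log2 fold changes (horizontal axes, limma, points) with 95% intervals (lines) of the 10 genes in the 3 comparisons; filled points passed an adjusted p of 0.05 over all genes. Points lie at or left of -0.35 for injured against sham, at or right of 0.39 for inhibitor against injured, and between -0.22 and 0.42 for inhibitor against sham, where no point is filled.

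Genes of the contractile apparatus and of macrophages differed between the same groups. Of 18 contractile smooth muscle markers, 15 were lower and 0 higher after injury, and 15 were higher and 0 lower with the inhibitor than in injured arteries. Their summed level was 820317 to 1070657 normalised counts in sham, 278273 to 363103 in injured and 946978 to 955628 in inhibitor-treated libraries. Of 15 macrophage markers, 14 were higher after injury and 15 lower with the inhibitor, with summed levels of 4807 to 6532, 39263 to 59948 and 6527 to 11111. Markers of other cells also differed: after injury 8 of 8 neutrophil, 6 of 7 lymphocyte, 7 of 10 endothelial, 6 of 8 Schwann cell and 6 of 10 fibroblast markers tested were higher. Of these lists only the fibroblast one had markers called lower, 2 of 10, and of 8 adipocyte markers 2 were higher and 1 lower. With the inhibitor 7 of 10 endothelial, 7 of 10 fibroblast and 7 of 8 adipocyte markers were lower than in injured arteries. In that comparison 1 fibroblast and 1 adipocyte marker were higher. Of 8 neutrophil markers 2 were higher and 2 lower there, and of 9 lymphocyte markers 2 were higher and 1 lower. Against sham, 5 of 6 neutrophil, 7 of 9 lymphocyte and 3 of 15 macrophage markers were higher with the inhibitor. In that comparison 4 of 10 fibroblast markers were lower. Over all genes tested, 20.6% were called higher and 16.8% lower after injury. The shares were 17.6% and 18.5% for inhibitor against injured, and 5.15% and 0.934% for inhibitor against sham. No marker of these lists was at 0 in all libraries of a group. The part of the mix of cells in the heat shock gene differences was not tested.

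Other genes of the chaperone network did not all move one way. The counts called in the lists below stand beside 16.8% of all genes tested called lower and 20.6% called higher after injury. For inhibitor against injured, 17.6% of all genes were called higher and 18.5% lower. The lists hold few genes, and none was tested against these shares. Hsf1, the factor of the heat shock response, fell by 0.73 after injury (SE 0.12, limma adjusted p = 0.00208) and was 0.66 ± 0.10 higher with the inhibitor (limma adjusted p = 0.00228). Its levels were 900, 1068 and 896 in sham, 526, 582 and 620 in injured and 929, 876 and 907 in inhibitor-treated libraries, without overlap of the injured group. The 4 genes tested of the heat shock factor list were Hsf1, Hsf2, Hsf4 and Hsbp1, the last encoding a factor-binding protein. Hsf2 and Hsbp1 were not called in either comparison. Hsf4 went the other way from Hsf1, 0.81 ± 0.27 after injury (limma adjusted p = 0.0462) and -1.02 ± 0.20 with the inhibitor (limma adjusted p = 0.00629). Both Hsf4 calls were lost with scaling to ribosomal protein genes (limma adjusted p = 0.23 and 0.117).

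Of 11 further HSP70, HSP110 and HSP90 genes, 4 fell (Hspa1l, Hspa2, Hspa4 and Hspa8) and 2 rose (Hspa12a and Hspa12b) after injury. Each of these 6 was called in the opposite direction with the inhibitor. Over all genes, 16.8% were called lower and 20.6% higher after injury. All 4 calls of Hspa12a and Hspa12b were lost with scaling to ribosomal protein genes (limma adjusted p from 0.0721 to 0.313). Hspa2, an HSP70 known from the testis, fell by 1.78 (SE 0.11, limma adjusted p = 1.76e-05). The HSP90 genes did not pass: Hsp90aa1, the inducible form, was at -0.61 (limma adjusted p = 0.0609) and 0.45 (0.136), and Hsp90ab1, the constitutive form, at -0.14 (0.582) and 0.05 (0.819), with both signs turned by quantile normalisation. With scaling to ribosomal protein genes Hsp90aa1 passed in both, at -0.83 (limma adjusted p = 0.00672) and 0.82 (limma adjusted p = 0.00751). Of 13 co-chaperones, mostly of HSP90, 6 fell after injury, led by Unc45a at -1.41 ± 0.11 (limma adjusted p = 5.66e-05). Unc45a is the myosin chaperone of non-muscle and smooth muscle cells. Its striated muscle relative Unc45b rose by 1.21 ± 0.39 (limma adjusted p = 0.0378), beside the skeletal muscle markers given above. Unc45b was lower with the inhibitor, at -1.20 (limma adjusted p = 0.0322), and both its calls were lost with scaling to ribosomal protein genes (limma adjusted p = 0.0705 and 0.0739). Chordc1, a co-chaperone often induced by heat, was at 0.01 (limma adjusted p = 0.954) and -0.02 (limma adjusted p = 0.881).

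Of 9 cytosolic J-domain genes, 3 fell after injury (Dnajb2, Dnajb4 and Dnajb5) and 4 were higher with the inhibitor (those and Dnajb6, whose call was lost with quantile normalisation, limma adjusted p = 0.0748). The shares over all genes were 16.8% lower after injury and 17.6% higher with the inhibitor. Dnajb5 was at -1.64 ± 0.17 (limma adjusted p = 0.000188) and 1.63 ± 0.16 (limma adjusted p = 0.000352), and Dnajb4 at -1.29 ± 0.15 and 1.42 ± 0.20, all larger than the values of Dnajb1. Dnaja1, a partner of HSP70 that is also known to be induced by heat, was at 0.00 (limma adjusted p = 0.993) and 0.07 (limma adjusted p = 0.652). Of 8 genes that work with BAG3 in the autophagy of filamin, 6 fell after injury and 5 were higher with the inhibitor. Synpo2, an actin-binding partner of BAG3, was at -1.57 ± 0.15 (limma adjusted p = 0.000125) and 1.71 ± 0.12 (limma adjusted p = 0.00012), and Flnc, its filamin client, at -0.94 ± 0.20 (limma adjusted p = 0.00635) and 1.10 ± 0.20 (limma adjusted p = 0.00447). Stub1, the ubiquitin ligase CHIP, was at -0.50 ± 0.13 (limma adjusted p = 0.0168) and 0.30 ± 0.10 (limma adjusted p = 0.0593), the second passing with scaling to ribosomal protein genes (0.66, limma adjusted p = 0.0308).

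The medians of the lists of mitochondrial chaperones, TRiC subunits and BAG genes lay between -0.20 and 0.03. Over all genes, 16.8% were called lower after injury and 17.6% higher with the inhibitor. The counts below come from 5 to 8 genes a list and were not tested against those shares. Of 8 mitochondrial chaperones, 3 fell after injury (Clpb, Lonp1 and Grpel1) and 2 were higher with the inhibitor (Lonp1 and Grpel1), and the Clpb call was lost with scaling to ribosomal protein genes (limma adjusted p = 0.0916). Of 8 subunits of the TRiC chaperonin, which folds actin and tubulin, 2 fell (Tcp1 and Cct7) and both were higher with the inhibitor, while Cct8 was lower with it by 0.27 on the log2 scale, a sign that scaling to ribosomal protein genes turned. The Tcp1 and Cct7 falls were lost with quantile normalisation (limma adjusted p = 0.245 and 0.164) and with scaling to ribosomal protein genes (0.0953 and 0.0533), and their calls with the inhibitor with quantile normalisation (0.246 and 0.235), that of Tcp1 also with ribosomal protein gene scaling (0.0604). Of 5 BAG genes besides Bag3, Bag2 and Bag6 fell and were higher with the inhibitor, and Bag4 was lower with it by 0.52 on the log2 scale, which became -0.16 with scaling to ribosomal protein genes (limma adjusted p = 0.604). None of the 9 chaperone lists had a called gene for inhibitor against sham with limma on the deposited values, while scaling to ribosomal protein genes called Dnajb2, Dnajb6 and Map1lc3b higher (limma adjusted p = 0.0483, 0.0427 and 0.0341).

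**Figure D5:**
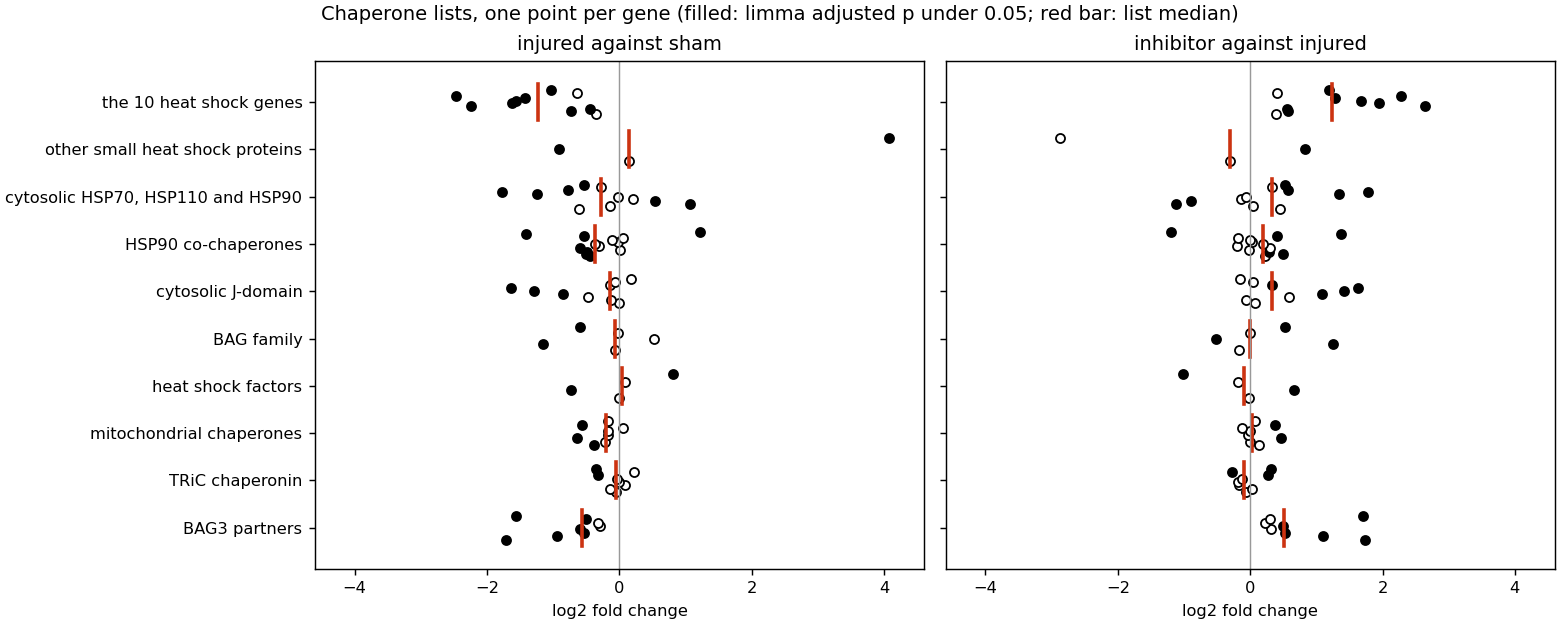
log2 fold change (horizontal axes) of each gene of the 10 heat shock genes and of 9 lists of related chaperones (rows) for injured against sham (left) and inhibitor against injured (right); filled points passed an adjusted p of 0.05 and red bars are list medians. The median of the 10 heat shock genes lies at -1.23 and 1.24, and those of the 9 lists between -0.56 and 0.14 on the left and between -0.30 and 0.51 on the right.

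The genes most like 9 of the 10 over the 9 libraries were ranked by the root mean square difference of centred log2 levels, over 11673 genes with a mean of at least 100. This is a description over 9 libraries in which the groups dominate, and it carries no test. For Hspb6 they were Sgca at 0.098, Cap2 at 0.124 and Tpm2 at 0.178, for Hspb7 Mtus2, Cbr2 and Wfdc1 (0.136 to 0.143) and for Hspb1 Carns1, Hip1r and Samd4 (0.127 to 0.142). For Cryab they were Ptges3l, Aes and Kmt5a (0.087 to 0.092) and for Hspb8 Prkar2a, Tmem109 and Kmt5a (0.100 to 0.115). Hspa1a was closest to Unc5c at 0.298, Hspa1b at 0.317 and Shroom3 at 0.33, and Hspa1b to Map1a, Dusp8 and 4631405J19Rik (0.286 to 0.302), so even the nearest genes lay farther off than for the small heat shock genes. Hsph1 was closest to Gm11451, Map3k7cl and Inpp5a (0.103 to 0.113) and Dnajb1 to Abcb10, Wipi2 and Trmt2b (0.073 to 0.091). Another of the 10 was among the nearest 11 genes for Hspa1a, Hspa1b, Hspb8 and Cryab, while the nearest of the 10 to Dnajb1 ranked at 2896.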

How the data were processed

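RNA-seq of 9 femoral artery media libraries (3 per group) was analysed from 3 deposited tables, 1 per pair of groups. Per the file headers and the values, the authors deposited normalised counts, a signal made by dividing the counts of a library by 1 factor, set separately in each table, with the log2 fold change, p-value and adjusted p-value of each gene. The authors' log2 fold changes and p-values, as deposited, served only as an alternative. Per the submitters' processing notes the build was mm10 (GRCm38); for the aligner, the counting program and the use of strand, nothing is given in the sources used here. Dividing each column by the value of 1 read gave whole reads for 100% of values within 0.01, and 0 reads differed where a library stood in more than 1 table. Total reads per library, and so the counting precision, are given with the results; intervals cover the spread between libraries.

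Each pair was tested within its table with limma 3.58.1 (R 4.3.3; trended variance, two-sided, group as the only term) on log2(value + 1), for genes with a mean of at least 10, with Benjamini-Hochberg adjustment over all genes and a threshold of 0.05; fold changes on this scale understate changes of low genes. Errors are standard errors of the fold change. edgeR 4.0.16 and DESeq2 1.42.0 on the recovered reads, other pseudocounts, filters and scalings, all 9 libraries in 1 fit, array weights, a replicate block, each library left out, the libraries richest in skeletal muscle RNA left out, and Hspa1a and Hspa1b summed were alternatives. Levels across groups used median-of-ratios factors over 16750 genes in at least 2 tables. Exon lengths came from GENCODE vM21. The fit was tested on simulated data. The 10 genes and the lists were chosen with earlier results of these data known. Genes named besides the 10 were a set list of 13 chaperone genes, members of a list called in a direction where 5 or fewer were, and the 3 nearest genes in pattern; those of Bag3 are not reported here. Rn7sk and genes that overlap, neighbour or share sequence with the 10 were named outside this rule, after their values were seen.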

Additional observations from a re-analysis of the deposited data

How the results depend on the processing

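Of the 20 alternatives to each count, all left 7 to 9 of the 10 genes lower after injury, 6 to 10 higher with the inhibitor than in injured arteries, and 0 in the opposite direction. For inhibitor against sham 0 passed, except that leaving out 1 library gave 0 to 1. Genes called over the whole table numbered 6076 (injured against sham), 6099 (inhibitor against injured) and 983 (inhibitor against sham), and 9621 and 10651 with array weights for the first 2, whose fit stopped before its tolerance was reached. Leaving out 1 library gave 4356 to 7277, 4080 to 7926 and 518 to 854. For inhibitor against sham the lowest counts were 518 without sham 1, 533 without inhibitor 2, 596 without sham 2 and 598 without inhibitor 1. Scaling to ribosomal protein genes moved the median of all genes to -0.228, 0.368 and 0.114 on the log2 scale. It moved the split of calls for injured against sham from 3346 higher and 2730 lower to 2112 and 2247 (2842 and 3344 with quantile normalisation), for inhibitor against injured from 2976 higher and 3123 lower to 3229 and 1407, and for inhibitor against sham from 832 and 151 to 1303 and 36, while quantile normalisation gave 617 and 220 there. The sign turned for Hspb8, inhibitor against injured, with array weights (-0.016), for Hsph1, inhibitor against sham, without sham 3 and without the muscle-rich libraries (-0.012 each; -0.012 to 0.306 over the left-out libraries), and for Bag3, inhibitor against sham, without inhibitor 1 (-0.001; up to 0.123 over the left-out libraries); the cause was not tested. With the replicate number as a block, 9 genes were lower (Hspb8 added, limma adjusted p = 0.0292), 8 higher and 0 called against sham. Same-numbered libraries did not deviate together (correlations from -0.076 to 0.192), so the numbers do not pair the samples. Where a library is left out, its arm holds 2 libraries.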

Other observations

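Genes next to or overlapping the 10, chosen after their values were seen, were also measured. Hspb2, a small heat shock gene that lies head to head with Cryab and overlaps it by 1030 bases on the opposite strand (252 of them exon bases of Cryab), was at 756, 858 and 620 normalised counts in sham, 346, 487 and 362 in injured and 732, 748 and 618 in inhibitor-treated libraries. It fell by 0.91 after injury (SE 0.18, limma adjusted p = 0.00421) and was 0.83 ± 0.16 higher with the inhibitor than in injured arteries (limma adjusted p = 0.00606). Hspa1l, an HSP70 gene best known from the testis, starts 546 bases from the start of Hspa1a on the opposite strand. Its levels were 108, 87.9 and 82.8 in sham, 33.4, 51.2 and 33.5 in injured and 95.4 to 101 in inhibitor-treated libraries, with fold changes of -1.24 ± 0.26 (limma adjusted p = 0.00621) and 1.34 ± 0.23 (limma adjusted p = 0.00418).

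The pseudogene Hsp25-ps1, which shares sequence with Hspb1, was listed at 32, 31.7 and 28.3 in sham, 10.7, 11.4 and 10.3 in injured and 27.5, 42.2 and 46.3 in inhibitor-treated libraries, the same order of groups as Hspb1 at a far lower level. Whether these reads came from Hspb1 was not tested. Proser3, which overlaps Hspb6 on the opposite strand by 122 exon bases, was 0.62 ± 0.20 lower after injury (limma adjusted p = 0.0364). Hspb3, a small heat shock gene of striated muscle, was at 25.1, 74.9 and 10.3 in injured libraries and at 0 to 1.17 in sham, highest in injured 2, where skeletal muscle markers were highest.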
